A study of Mus musculus with 8 samples.

Results

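The 45 genes described here encode the synaptic vesicle and release machinery of nerve terminals: vesicle proteins, the SNARE proteins that fuse vesicles with the plasma membrane and their regulators, calcium sensors, the protein scaffold of the active zone, and endocytic proteins that retrieve vesicle membrane. They were picked by gene symbol from a table of 55416 genes, with Rab genes left out. The rule uses no measured value, but the members were chosen with earlier results of these data known. All 45 were found in the table and all 45 passed the low-count filter of the test, as did 18627 genes in all. RNA was sequenced from the cerebral cortex of mice heterozygous for a leucine-to-proline change in the Argonaute protein Ago2 (AGO2_L192P/+, 4 libraries, here L192P) and of WT controls (4 libraries). No treatment is given for either group. The variant was introduced by CRISPR/Cas into embryos, founder mice were crossed to wild-type C57/Bl6 mice, and as a germline change it lies beside a normal allele in every cell, not in neurons alone. Age and sex are not given in the sources used here, nor is it stated whether each library comes from 1 animal, so p-values measure the spread between these libraries, which may be technical. The cortex is a mixture of cells, and in such bulk tissue a smaller number of neurons and less RNA per neuron cannot be told apart.

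As background, an action potential opens calcium channels at the active zone, calcium binds a synaptotagmin on a docked vesicle, and the SNARE complex of synaptobrevin, syntaxin and SNAP-25 completes fusion. Munc13 and RIM proteins prepare vesicles for release, complexins hold the complex ready, NSF takes it apart after fusion, and dynamin cuts retrieved membrane free. Most of these proteins exist as several paralogs, which differ between neuron types. Ago2 carries miRNAs that bind matching sites in the 3′ UTRs of mRNAs, and abundant brain miRNAs such as miR-128-3p, miR-9-5p and miR-137-3p have sites in many neuronal genes.

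The libraries held between 20396357 and 43575900 counts. Normalized counts below are counts divided by the DESeq2 size factor of the library, log2 fold changes are L192P over WT, and a call means an adjusted p (Benjamini-Hochberg, over all genes tested) below 0.05. Ago2 itself had 2398, 2273, 2273 and 2222 normalized counts in L192P replicates 1 to 4 and 2380.3, 2083, 2207 and 2316 in WT replicates 1 to 4, and its log2 fold change was 0.03 with a DESeq2 adjusted p of 0.968. A missense change need not alter the transcript level, so these counts do not check the genotype labels. Both replicate 1 libraries stood apart from the other 6, with Xist at 0.934 and 1.82 normalized counts where the others had 5185 to 7257, and chromosome Y genes summing to 3314 and 3218 where the others had 218 to 460. Of the 45 genes, 2 (Napb and Erc2) were higher in both replicate 1 libraries than in all other libraries and 6 (Syn1, Syt2, Syt11, Bsn, Rph3a and Ppfia3) were lower in both, which is 4.44% and 13.3% beside 8.86% and 9.89% of all genes tested. For the 45 genes, calls that change without these libraries are given beside the results.

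None of the 45 release machinery genes was called between the genotypes by DESeq2, beside 1.36% of all genes tested (253 genes, 147 higher and 106 lower in L192P, or 168 higher and 64 lower with total counts as size factors). No gene of the set was called by edgeR (beside 0.314%) or limma-voom (beside 0.266%) either. At an unadjusted p under 0.05 the DESeq2 fit gave 5 genes, beside 9.44% of all genes tested, namely Unc13c, Sv2c and Syn3 with higher counts in L192P and Syngr1 and Rimbp2 with lower counts. The L192P and WT libraries did not overlap for 2 genes, Syngr1 and Cplx1, both lower in L192P, beside 2.96% of all genes that were separated in that direction and 5.97% in either. The fitted log2 fold changes ran from -0.17 to 0.48 and the adjusted p from 0.221 to 0.999. Of the 45 fold changes 24 were below 0 and 21 above it, with a median of -0.0086 beside 0.0019 for all genes tested and -0.0069 for the 10799 genes counted at least as highly as the lowest member. The sign of the median of the 45 turned with total counts as size factors (0.016). With the DESeq2 size factors, the SD of the library medians within a genotype was 0.024.

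The counts of these genes were high enough to bound the differences. The median SE was 0.074 on the log2 scale, beside 0.13 for all genes tested and 0.087 for the 10799 genes counted at least as highly as the lowest member. The 95% interval lay within 0.3 of 0 for 37 genes and within 0.5 for 43. The 45 genes together took between 2.21% and 2.33% of the normalized counts of every library, and both ends of that range were L192P libraries (replicates 3 and 1).

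**Figure D1:**
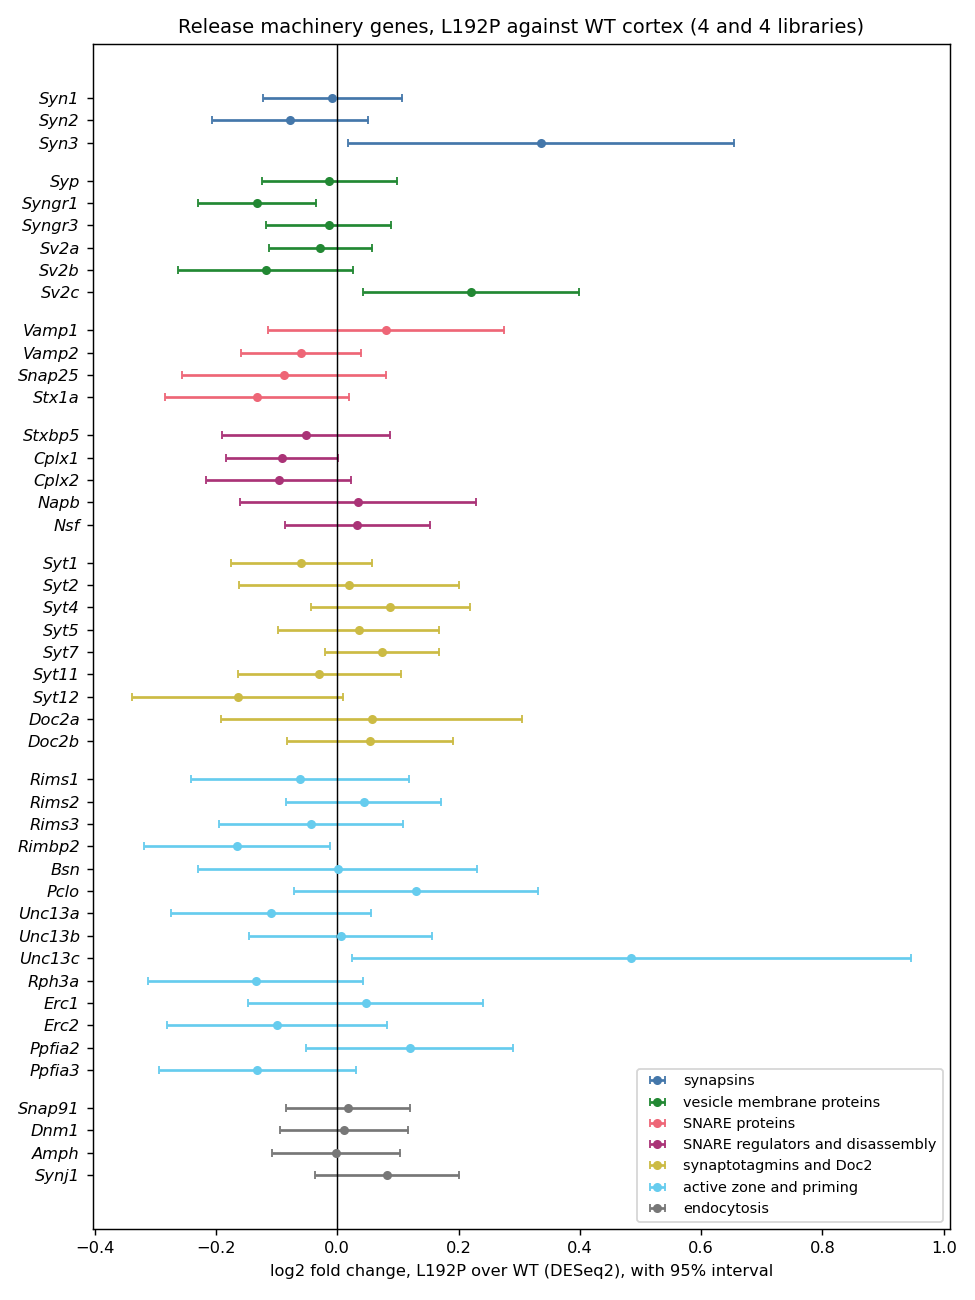
Log2 fold change of each gene, L192P over WT, from DESeq2 on 4 and 4 libraries, with bars for the 95% interval and colors for the role of the gene. Most points lie within 0.2 of the line at 0, and the bars of Unc13c, Sv2c and Syn3 (above 0) and of Syngr1 and Rimbp2 (below 0) do not cross it.

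Replicate numbers were treated as pairing the libraries, since same-numbered libraries of the 2 genotypes deviated together across genes. The labels do not say what a number marks, so the pairing was inferred from the same counts that the block fits then test. Pair 1 is made of the 2 libraries that Xist and chromosome Y counts set apart. With the number as a block, DESeq2 called 1 of the 45 genes, Unc13c, beside 4.25% of genes tested in that fit, and edgeR with the block called Unc13c alone, beside 3.01%. Without both replicate 1 libraries DESeq2 called 2 of the 45 genes, Sv2c (higher) and Rimbp2 (lower), beside 3.46%. Without WT replicate 1 alone it called Ppfia3 (log2 fold change -0.21, adjusted p = 0.0444), beside 3.24%. The block fit without the replicate 1 pair, a choice made after seeing the data, called 7 of the 45 beside 4.13%: Sv2c and Unc13c higher, and Syngr1, Sv2b, Stx1a, Rimbp2 and Rph3a lower, with log2 fold changes of the lower genes from -0.24 to -0.15. Lower in L192P in every pair were Syngr1, Sv2b, Stxbp5, Cplx1, Cplx2, Syt12, Unc13a, Rph3a and Erc2. Higher in every pair were Syn3, Unc13c, Ppfia2, Synj1 and, though barely in replicate 1, Sv2c. The share of all genes tested with such agreement is not given here.

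To show where seeds of brain miRNAs match members described here, 3′ UTRs of the canonical transcripts (GENCODE M39, GRCm39) were searched for the 7-base complement of miRNA bases 2 to 8, on the transcript strand. The mature miRNAs whose sites are printed below are, 5′ to 3′, from the RefSeq table on GRCm38.p6, with the seed (bases 2 to 8) in capitals.
mmu-miR-128-3p: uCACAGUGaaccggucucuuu
mmu-miR-9-5p: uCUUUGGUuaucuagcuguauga
mmu-let-7a-5p: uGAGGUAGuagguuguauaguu
mmu-miR-137-3p: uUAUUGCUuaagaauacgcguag
The sites printed next are a selection from the member called in the block fit, Unc13c, and from the 2 members whose groups did not overlap, Syngr1 and Cplx1. Capitals mark the 7 bases that match a seed, and coordinates are those of the printed window on GRCm39.
Unc13c, miR-128-3p, chr9:73387549-73387578, minus strand: gttcctaacctttctaaaatatCACTGTGa
Unc13c, miR-9-5p, chr9:73387193-73387222, minus strand: gcactactgtagattgcagaaaACCAAAGt
Syngr1, miR-128-3p, chr15:80003692-80003721, plus strand: tcaactcaccagtgggctgtgtCACTGTGt
Syngr1, miR-128-3p, chr15:80004473-80004502, plus strand: ttgggatctggttctttccttcCACTGTGt
Syngr1, let-7-5p, chr15:80004574-80004603, plus strand: actccaggaggtctgtctgcctCTACCTCc
Cplx1, miR-137-3p, chr5:108667363-108667392, minus strand: attccatggccagaggaaacacAGCAATAg
The Unc13c site for miR-128-3p is followed by an A and so is an 8-base site. A match of letters is a description of the sequence and does not show that a miRNA binds there.

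Over the 9 miRNA families searched (let-7-5p, miR-9-5p, miR-29-3p, miR-34-5p, miR-92-3p, miR-128-3p, miR-137-3p, miR-138-5p and miR-153-3p), 34 of the 45 genes (75.6%) held at least 1 site, beside 63.2% of 14898 tested genes with a 3′ UTR. The 3′ UTRs of the 45 genes were longer, with a median of 2379 bases beside 1362, and the part of length in the shares was not tested. Sites for miR-9-5p stood in 15 genes (33.3% beside 15.5%), for miR-128-3p in 14 (31.1% beside 24.5%), for miR-138-5p in 12 (26.7% beside 15.7%) and for miR-137-3p in 10 (22.2% beside 11.7%). Families of let-7-5p and miR-92-3p had shares near those of all genes, at 11.1% beside 11.6% and 8.89% beside 8.06%. Syn3 held the most sites, 13 from 8 families, in the longest 3′ UTR of the 45 (6779 bases). Sv2c held 9 from 7 families in a 3′ UTR of 6686 bases. Vamp2, Syn1, Syn2, Nsf and Rimbp2 were among the 11 genes in which none of these letters stood. Genes with a site (34) had a median log2 fold change of 0.0030 and those without (11) one of -0.052, given as a description with no test.

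**Figure D2:**
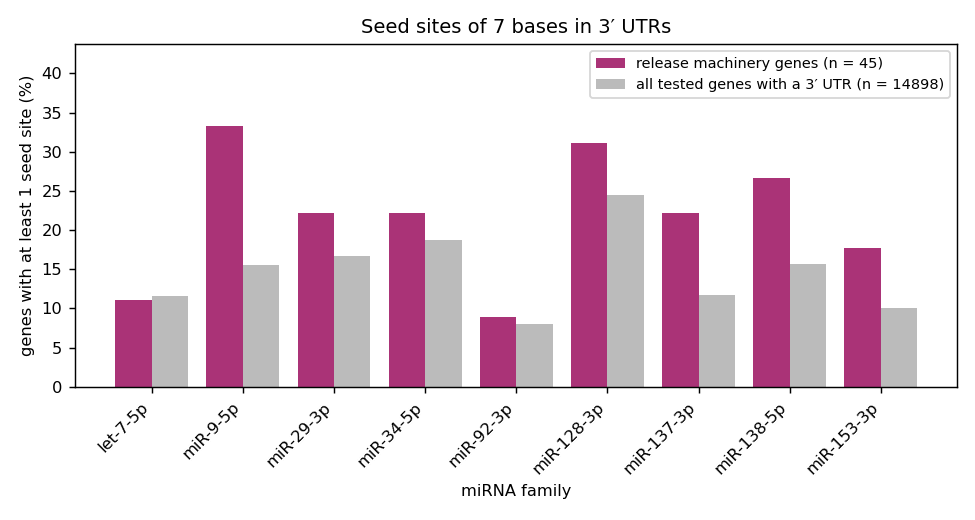
Percentage of genes with at least 1 7-base seed site in the 3′ UTR, for each miRNA family, in the 45 release machinery genes and in 14898 tested genes with a 3′ UTR. The bars of the release machinery are higher for miR-9-5p (33.3% beside 15.5%) and close to those of all genes for let-7-5p and miR-92-3p.

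Synapsins coat the vesicle and tether the reserve pool. Syn1 had 3654 normalized counts per kilobase of merged exons, the highest level of the class, and Syn2 had 1340.1. The order of the pair depends on the length used, because Syn2 has long merged exons: per kilobase of the canonical transcript the levels were 4425 for Syn1 and 4482 for Syn2. Syn3, which is best known from developing neurons, was the lowest of all 45 genes, at 8.53 per kilobase. Syn3 had 215, 165, 220.2 and 211 normalized counts in L192P replicates 1 to 4 and 180.3, 120.3, 177 and 169.7 in WT replicates 1 to 4. Each L192P library was above the WT library of the same number, and L192P replicate 2 lay below 3 of the WT libraries, so the groups overlapped. The log2 fold change was 0.34 (SE 0.16, 95% interval 0.018 to 0.65) with a DESeq2 adjusted p of 0.471, and the exact two-sided permutation p was 0.114. Exons of Syn3 overlap Fbxo7 and Timp3 on the opposite strand over 14.6% and 8.11% of their bases. No source used here says whether reads were counted by strand, so it is not known how these overlaps affect the Syn3 counts. Syn1 and Syn2 had log2 fold changes of -0.0086 and -0.078, and neither passed the test.

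Among the vesicle membrane proteins, Syp, which encodes the abundant marker synaptophysin, had the highest level, at 4237 normalized counts per kilobase, with a log2 fold change of -0.013 (adjusted p = 0.988, DESeq2). Synaptogyrins are relatives of synaptophysin with a part in vesicle recycling. Syngr1 (Ensembl ENSMUSG00000022415, chr15:79975353-80005062, plus strand, GRCm39) had 13207, 12852, 12428 and 13290.3 normalized counts in L192P replicates 1 to 4 and 13730.1, 14875, 14137 and 13992 in WT replicates 1 to 4. All 4 L192P libraries lay below all 4 WT libraries. The mean was 12945 ± 393 against 14183 ± 491 (SD, n = 4 each). The log2 fold change was -0.13 (SE 0.05, 95% interval -0.23 to -0.035) with a DESeq2 adjusted p of 0.221, so it was not called. The exact two-sided permutation p was 0.0286, the smallest that 70 splits of 4 against 4 allow. Any gene whose groups do not overlap gets this value, so it adds nothing to the separation. With the replicate block the DESeq2 adjusted p was 0.0566. Its paralog Syngr3 was at 1796 per kilobase of merged exons beside 1708 for Syngr1, an order that turned with canonical lengths (1967 and 2366). Syngr3 had a log2 fold change of -0.014 (SE 0.053).

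SV2 glycoproteins are transporter-like proteins of the vesicle membrane, needed for normal release and, in the case of SV2A, the target of levetiracetam. Their levels were ordered Sv2a (1317 normalized counts per kilobase), Sv2b (732) and Sv2c (149). Sv2c (Ensembl ENSMUSG00000051111, chr13:96091102-96269085, minus strand) had 1385, 1643, 1532 and 1677 normalized counts in L192P replicates 1 to 4 and 1384, 1179, 1296 and 1502 in WT replicates 1 to 4. L192P replicates 2, 3 and 4 were above every WT library, while replicate 1 of L192P stood at the level of its WT counterpart. The log2 fold change was 0.22 (SE 0.091, 95% interval 0.042 to 0.40) with a DESeq2 adjusted p of 0.321. Without both replicate 1 libraries it was 0.29 with an adjusted p of 0.048, and with the block over all 4 pairs the adjusted p was 0.0975. The Sv2c share of SV2 transcripts per kilobase of merged exons was 7.42% ± 0.620 in L192P and 6.19% ± 0.532 in WT (SD, n = 4), and with canonical lengths 4.0% ± 0.335 and 3.33% ± 0.297. Sv2a and Sv2b had log2 fold changes of -0.028 and -0.12 and did not pass the test.

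Of the SNARE genes, Snap25 ranked 4 and Vamp2 27 among all genes by mean count. Snap25, encoding the plasma membrane SNARE that gives the complex a pair of its helices, had 96406, 79549.7, 76087 and 92330.0 normalized counts in L192P replicates 1 to 4 and 96477, 81873, 97053 and 90570.3 in WT replicates 1 to 4. L192P replicates 2 and 3 and WT replicate 2 were the low libraries and the groups overlapped widely, with a log2 fold change of -0.088 (SE 0.086). Per kilobase of merged exons Vamp2, the synaptobrevin of most forebrain synapses, was highest at 10235, followed by Snap25 at 8871, Stx1a at 2923 and Vamp1 at 578. With canonical lengths Snap25 (38825) came above Vamp2 (35187). Vamp2 had 39419, 41078, 36441 and 39224 normalized counts in L192P replicates 1 to 4 and 40681, 40646, 40933 and 40509 in WT replicates 1 to 4. The WT libraries were close together, L192P replicate 3 was the lowest and L192P replicate 2 the highest of all 8, and the log2 fold change was -0.06. Vamp1, the synaptobrevin of fast-spiking and brainstem neurons, made up 5.63% ± 1.13 of synaptobrevin transcripts per kilobase in L192P and 5.11% ± 0.309 in WT. Stx1a, the plasma membrane syntaxin, had a log2 fold change of -0.13 (adjusted p = 0.64, DESeq2). None of the 4 passed the test.

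Among the regulators of the SNARE complex, the complexins had the highest levels. Cplx2, the complexin of most excitatory cortical neurons, had 9725 normalized counts per kilobase and Cplx1 5989, and with canonical lengths Cplx1 came slightly above, at 9966. Cplx1 (Ensembl ENSMUSG00000033615, chr5:108666416-108697899, minus strand) had 21349, 21362, 21618 and 20579 normalized counts in L192P replicates 1 to 4 and 21741, 22625, 23656 and 22394 in WT replicates 1 to 4. The highest L192P library lay just below the lowest WT library. The log2 fold change was -0.091 (SE 0.047, 95% interval -0.18 to 0.0019) with a DESeq2 adjusted p of 0.544. The exact two-sided permutation p was 0.0286, the value of any gene without overlap. Cplx2 was lower in the L192P library of each of the 4 pairs, with a log2 fold change of -0.10 (SE 0.061, adjusted p = 0.687, DESeq2), and its groups overlapped. Stxbp5, encoding tomosyn, which inhibits SNARE assembly, Nsf, the ATPase that separates used complexes, and Napb, its adaptor, had log2 fold changes of -0.052, 0.033 and 0.034. Napb stood at 19281 and 20272 normalized counts in the replicate 1 libraries and at 14448 to 17113 in the other 6, a log2 difference of 0.30 by replicate number.

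Synaptotagmins and Doc2 proteins bind calcium and membranes through C2 domains, although Syt4, Syt11 and Syt12 are known for weak or absent calcium binding. None of the 9 genes of this class passed the test, 3 were below 0 and 6 above, and the fold changes ran from -0.16 (Syt12) to 0.087 (Syt4). Syt1, the calcium sensor of fast synchronous release in the forebrain, and Syt11, which acts in membrane retrieval, led the class. Per kilobase of merged exons Syt11 was at 3302 and Syt1 at 2723, whereas per kilobase of canonical transcript Syt1 (7369) was above Syt11 (5992). Syt1 had 36587, 32589.6, 32461 and 35967 normalized counts in L192P replicates 1 to 4 and 36241, 34290.4, 35554 and 37289 in WT replicates 1 to 4. The ranges overlapped, and the log2 fold change was -0.059 (SE 0.059). Syt7, a slow sensor linked to asynchronous release and facilitation, had a log2 fold change of 0.074 (SE 0.048). Syt2, the fast sensor of inhibitory and brainstem neurons, was at 205 per kilobase. It was lower in both replicate 1 libraries (1667 and 1705) than in the other 6 (1858 to 2199), and its log2 fold change by genotype was 0.019. Doc2a and Doc2b, high-affinity sensors of spontaneous release, had log2 fold changes of 0.057 and 0.053. Ino80e overlaps 33.7% of the Doc2a exon bases on the opposite strand.

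The active zone class held the only member called in any fit of all 8 libraries. Munc13 proteins prime docked vesicles, and Munc13-3, encoded by Unc13c, is best known from the cerebellum. Unc13c (Ensembl ENSMUSG00000062151, chr9:73386701-73876490, minus strand) had 1045, 1244, 1901 and 1493 normalized counts in L192P replicates 1 to 4 and 787, 911, 1144 and 1221 in WT replicates 1 to 4. L192P replicate 3 was the highest of all libraries and both replicate 1 libraries were the lowest of their genotype, so the groups overlapped, but in each pair the L192P library was above the WT library. The log2 differences within pairs 1 to 4 were 0.41, 0.45, 0.73 and 0.29. The mean was 1421 ± 369 against 1016 ± 202 (SD, n = 4 each).

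Without the pairing, the log2 fold change was 0.48 (SE 0.24, 95% interval 0.024 to 0.95) with a DESeq2 adjusted p of 0.477, and the exact two-sided permutation p was 0.114. With the replicate block, inferred from these counts, it was 0.47 (SE 0.082) with an adjusted p of 2.57e-06 in DESeq2 and 0.00288 in edgeR. In block fits that left out 1 pair each, added after seeing the data, it stayed between 0.38 and 0.53, with DESeq2 adjusted p from 2.65e-05 to 0.00973. In the fits without pair 2, 3 or 4 it was the only member called, beside 1.1%, 0.937% and 2.38% of genes tested. Without L192P replicate 3 and without pairing it was 0.31 (adjusted p = 0.55, DESeq2). Without both replicate 1 libraries and without pairing it was 0.50 (adjusted p = 0.222). Sites for miR-128-3p and miR-9-5p in its 3′ UTR are printed above. No exon of Unc13c, Syngr1 or Cplx1 overlaps another annotated gene.

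Markers of neighboring brain regions moved with genotype in the same libraries. The summed normalized counts of 9 thalamic markers ran from 6117 to 10063 in L192P and from 4968 to 5909 in WT, with no overlap, and 2 of the 9 were called higher (Calb2 and Zic1). The highest thalamic sum was in L192P replicate 3, the library with the highest Unc13c count, whereas the lowest L192P sum was in replicate 4, the second highest for Unc13c. The sums of 9 striatal markers ran from 29456 to 36772 in L192P and from 38479 to 46676 in WT, again with no overlap. Of these 9, 2 were called lower, beside 5 lower with the replicate block and 3 lower without both replicate 1 libraries. No marker of either list was at 0 in every library. Their part in the Unc13c values, and in those of Sv2c and the other members, was not tested.

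Within the Munc13 family the share of Unc13c per kilobase of merged exons was 25.9% ± 4.93 in L192P and 18.9% ± 2.33 in WT (SD, n = 4), ranging over libraries from 16.9% to 33.1%. With canonical lengths the shares were 18.6% ± 3.95 and 13.3% ± 1.74. Unc13a, encoding the main Munc13 of cortical glutamatergic terminals, was lower in the L192P library of all 4 pairs, with a log2 fold change of -0.11 (SE 0.084, adjusted p = 0.79 in DESeq2 and 0.163 with the block). Colgalt1 overlaps 16.7% of its exon bases on the opposite strand. Unc13b was at 0.0056 (SE 0.077).

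**Figure D3:**
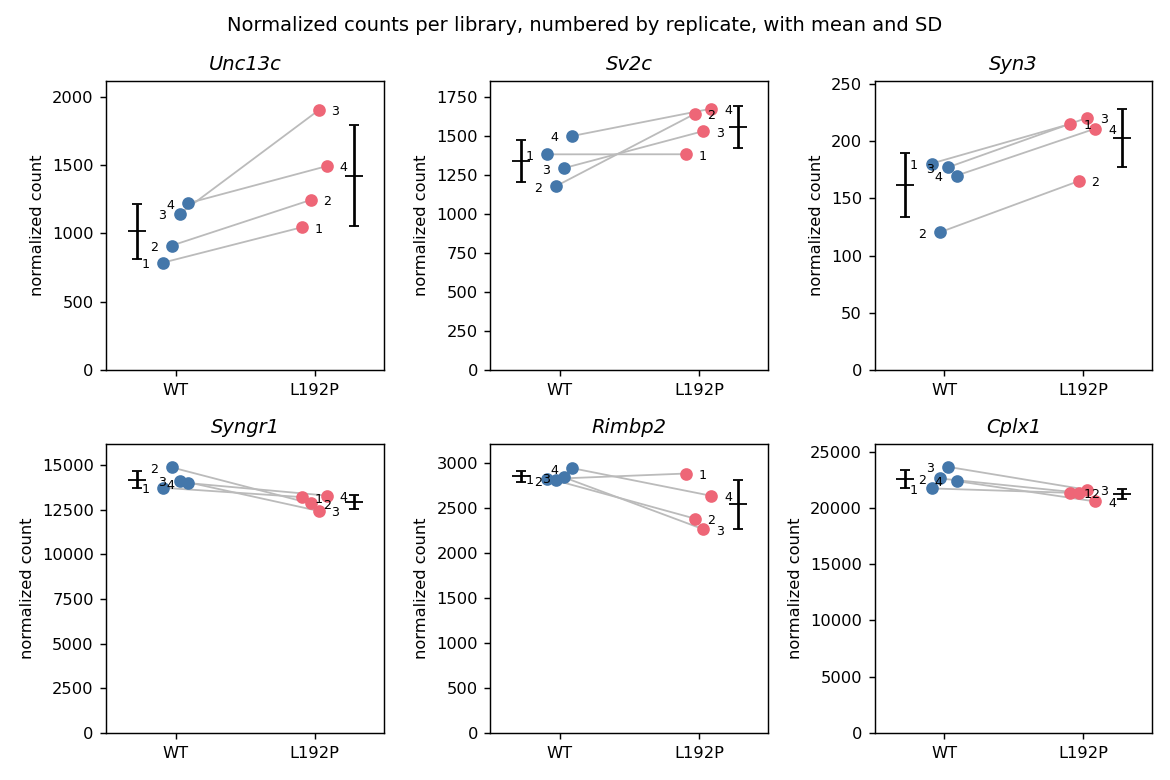
Normalized counts of 6 genes in each library, with WT points on the left and L192P points on the right, numbered by replicate, gray lines joining libraries of the same number, and bars for the mean and SD of 4 libraries. All 4 lines rise for Unc13c and Syn3, all 4 fall for Syngr1 and Cplx1, and the line of replicate 1 is flat for Sv2c.

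Rimbp2 encodes a RIM-binding protein that links RIM to calcium channels. It had 2879, 2379.5, 2262 and 2632 normalized counts in L192P replicates 1 to 4 and 2818, 2802, 2836 and 2938 in WT replicates 1 to 4. The WT libraries were within a narrow range, L192P replicates 2, 3 and 4 lay below all of them, and L192P replicate 1 lay inside it. The log2 fold change was -0.17 (SE 0.078, 95% interval -0.32 to -0.013) with a DESeq2 adjusted p of 0.45. Without both replicate 1 libraries it was -0.24 with an adjusted p of 0.0317, and with the block over all 4 pairs the adjusted p was 0.119. Gm42875 overlaps 7.35% of its exon bases on the opposite strand.

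The other scaffold genes did not pass the test with or without the block over 4 pairs. Rph3a, encoding the Rab3 effector rabphilin, had the highest level of the class, at 1189.7 normalized counts per kilobase, and had 10009, 11621, 11132 and 12177 normalized counts in L192P replicates 1 to 4 and 10344, 12609, 12399 and 13983 in WT replicates 1 to 4. It was lower in L192P in every pair and low in both replicate 1 libraries, so that the groups overlapped, with a log2 fold change of -0.13 (adjusted p = 0.728 in DESeq2 and 0.0532 with the block). Rims1, Rims2 and Rims3, RIM proteins that recruit calcium channels and Munc13, had log2 fold changes of -0.061, 0.044 and -0.044. Bsn and Pclo encode the giant scaffolds bassoon and piccolo. Bsn had 4859.9, 6071, 6196 and 6127 normalized counts in L192P replicates 1 to 4 and 4471, 6491, 5546 and 6737 in WT replicates 1 to 4, and both replicate 1 libraries were below the other 6. Its log2 fold change by genotype was 0.00041 with a 95% interval of -0.23 to 0.23, and that of Pclo was 0.13 (SE 0.10). The ELKS genes Erc1 and Erc2 were at 0.047 and -0.10. The liprins Ppfia2 and Ppfia3, which organize the active zone, were at 0.12 and -0.13. Acss3 overlaps 20.2% of the Ppfia2 exon bases on the opposite strand.

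None of the 4 endocytic genes passed the test, and none had a log2 fold change beyond 0.082. Dnm1, encoding the neuronal dynamin, had 33105, 34096, 32276 and 32243 normalized counts in L192P replicates 1 to 4 and 30389, 33895, 33965 and 32459 in WT replicates 1 to 4, and its level of 4262 per kilobase was the highest of the class. The ranges of the genotypes overlapped and the log2 fold change was 0.011 (SE 0.054). Amph (amphiphysin, which brings dynamin to the membrane), Snap91 (the clathrin adaptor AP180) and Synj1 (synaptojanin, the lipid phosphatase of uncoating) had log2 fold changes of -0.0022, 0.018 and 0.082. All 4 intervals lay between -0.11 and 0.20.

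**Figure D4:**
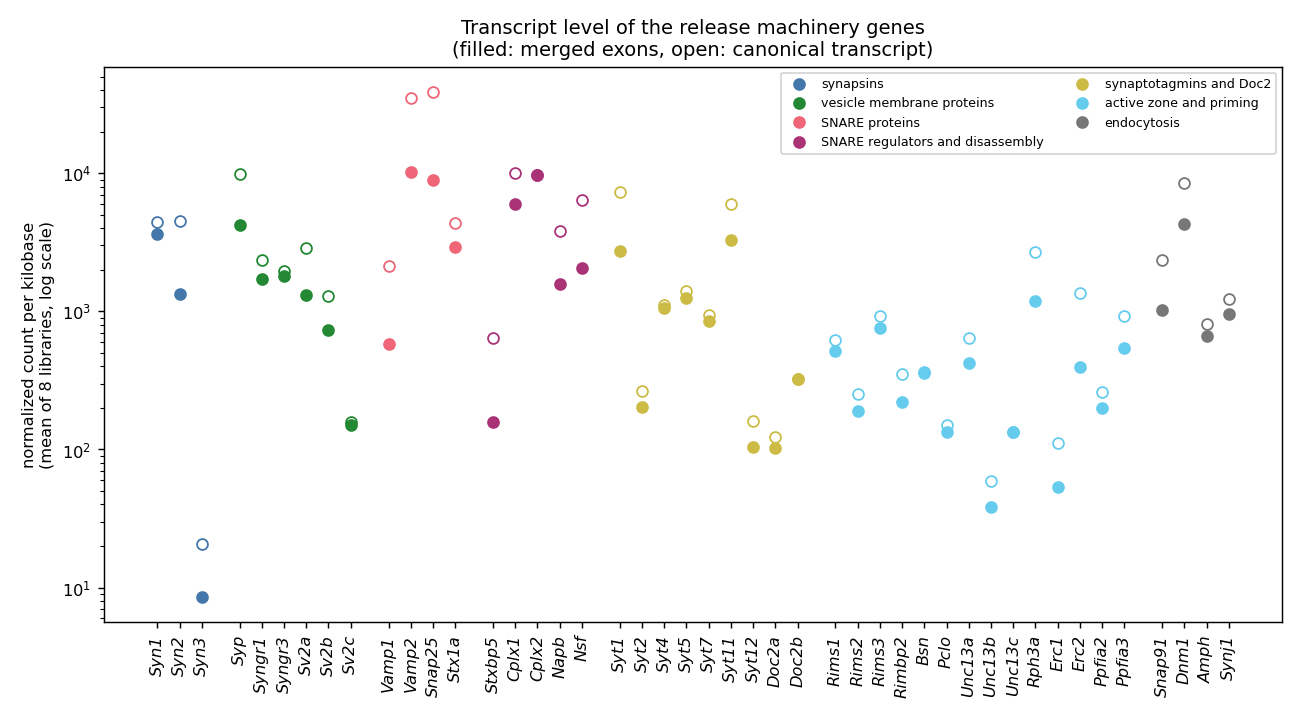
Mean normalized count per kilobase over the 8 libraries, on a log axis, for each gene, with filled points for merged exon length, open points for the canonical transcript and colors for the role of the gene. Syn3 lies lowest (8.53 per kilobase of merged exons), and Vamp2, Cplx2 and Snap25 lie highest by merged exons.

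Over all 45 genes, the median deviation of a library from the gene means lay between -0.032 (L192P replicate 3) and 0.047 (WT replicate 4) on the log2 scale. The lowest single value of a library was that of Unc13c in WT replicate 1 (-0.58), and the highest that of Unc13c in L192P replicate 3 (0.69). Unc13c varied most over the 8 libraries, with a coefficient of variation of 28.8%, and Sv2a least, with 2.05%.

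**Figure D5:**
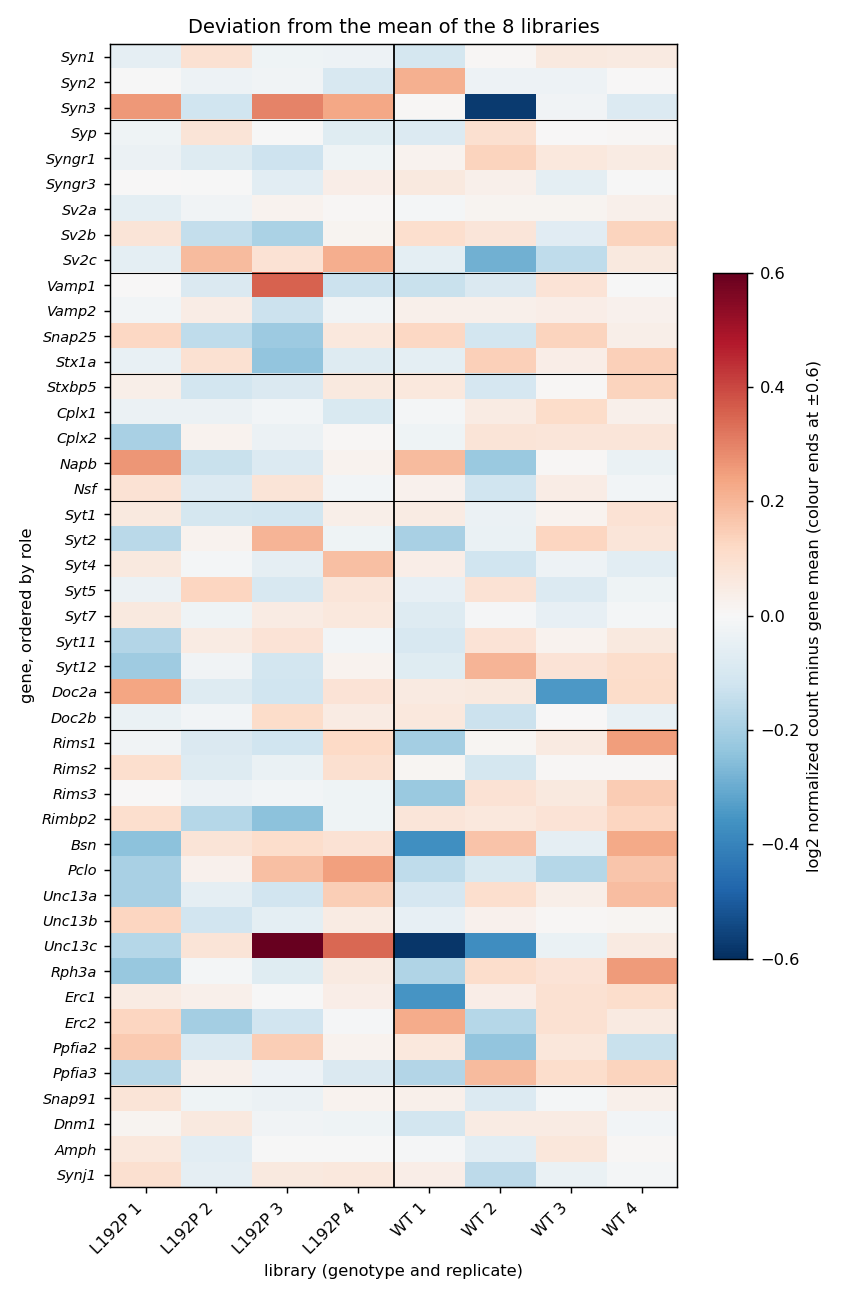
Log2 normalized count minus the mean of the gene over the 8 libraries (color, ending at 0.6 in either direction), for each gene (rows, ordered by role) in each library (columns, L192P to the left of the line). Unc13c is low in WT replicates 1 and 2 and high in L192P replicates 3 and 4, and Bsn is low in both replicate 1 libraries.

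A further list of 60 genes of the same pathway outside the 45 was read from the same fit, of which 57 were in the table and 55 were tested. DESeq2 called 4 of them lower in L192P (beside 0.569% of all genes) and 0 higher (beside 0.789%), and the median log2 fold change was -0.012. Cplx3, a complexin of retinal ribbon synapses and deep cortical neurons, was at 472 ± 70.9 against 636 ± 82.4, log2 fold change -0.43, adjusted p 0.0382. Syt6, a synaptotagmin, was at 829.7 ± 63.5 against 1036 ± 96.7, log2 fold change -0.32, adjusted p 0.0331. Synj2, a paralog of Synj1, was at 2362 ± 129 against 2773 ± 107, log2 fold change -0.23, adjusted p 0.0233. Without both replicate 1 libraries Cplx3 and Syt6 were no longer called (DESeq2 adjusted p of 0.16 and 0.0557), while Synj2 still was (0.00364).

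Scamp5, a vesicle membrane protein, was at 10124 ± 158 against 11384 ± 353, log2 fold change -0.17, adjusted p 0.0242 (SD, n = 4 each, DESeq2). It was also called without both replicate 1 libraries (DESeq2 adjusted p of 0.00788). With the replicate block DESeq2 called 9 (2 higher and 7 lower), while edgeR and limma-voom called 0 and total counts as size factors left 1 call, which was higher. None was called without L192P replicate 3, L192P replicate 4, WT replicate 2 or WT replicate 4, and 2 were called without L192P replicate 2 or WT replicate 3. The direction of calls in this list changes with the scaling, and their number changes with single libraries. Markers of cortical excitatory neurons summed to 146023 to 159553 in L192P and to 155094 to 185239 in WT, with overlap and none of 14 called. The L192P sum was the lower in each of the 4 pairs, and the block fit called 5 of the 14 lower and 1 higher, while 5 were called lower without both replicate 1 libraries. The part of these markers in the release machinery values was not tested.

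Pan-neuronal markers, which mark the cells that express the release machinery, summed to 170859 to 179273 in L192P and 174644 to 185770 in WT, and none of 15 was called, while 1 was called higher with the block and 1 without both replicate 1 libraries. Of 12 GABAergic markers 1 was called higher (Gad2), and of 9 hypothalamic markers 3 (Oxt, Avp and Gal). No gene was called in the lists for hippocampus (9 genes), astrocytes (9), the oligodendrocyte lineage (10), microglia (9), endothelium and mural cells (9), blood (5) or choroid plexus (5). With the block, 1 microglial and 1 endothelial or mural gene were called higher, and 3 thalamic markers, 2 hypothalamic markers and 1 GABAergic marker were called higher and 1 GABAergic marker lower. Without both replicate 1 libraries, 3 microglial genes, 2 blood genes, 1 hippocampal gene and 1 endothelial or mural gene were called higher. No marker of the cortical excitatory list, Slc17a7 and Neurod6 among them, was at 0 in every library.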

How the data were processed

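Per the labels and the methods of the study, polyadenylated RNA of cerebral cortex was sequenced as stranded mRNA libraries (4 L192P, 4 WT), and the authors aligned reads to GRCm39 with STAR (2.7.9a in the submitters' processing notes) and deposited counts per gene from featureCounts (1.5.1 there), with replicates kept separate. The Ensembl release and the use of strand in counting are not given in the sources used here, and exons of 31 of the 45 genes overlap a gene on the opposite strand. A second deposited table of normalized values was not used here.

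The counts were fitted with DESeq2 1.42.0 (R 4.3.3) on genotype alone (Cook filter at its default, independent filtering set to 0.05), and p-values were adjusted over all genes. The study's methods name DESeq2 and the threshold. Libraries held 20396357 to 43575900 counts, and counting error and the spread between libraries both enter the standard errors. No 2 libraries of a genotype agreed within counting noise (chi-square per degree of freedom 5.52 to 22.6). Exact permutation tests covered all 70 splits of 4 against 4.

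The labels number the replicates without saying what a number marks. Over 13422 genes whose mean normalized count reached 50, deviations from the genotype mean correlated at 0.63, 0.38, 0.23 and 0.33 between libraries numbered 1, 2, 3 and 4, and at -0.38 to 0.14 between libraries with different numbers. As the deviations of a gene cancel out within a genotype, high correlations of the same number lower those of different numbers. The different-number values are thus no independent contrast. The numbers were taken to pair the libraries on these correlations alone. The value with the replicate block, or for marker lists the count of calls, is given where the block changes a call.

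The 18 alternatives were edgeR 4.0.16 (quasi-likelihood, TMM), limma 3.58.1 (voom), TMM or total counts as size factors, only genes reaching 10 counts in 4 or more libraries, independent filtering or the Cook filter off, the replicate block in DESeq2 and edgeR, both replicate 1 libraries left out, and each library left out. A further 4, block fits without 1 pair, were added after seeing the data. All programs were tested on simulated data, drawn without any effect of replicate number. DESeq2 recovered 93% of genes changed by log2 1 and 42% of those changed by 0.3, and 11.2% of its calls were false. With the block the 3 values were 90%, 32% and 8.27% in DESeq2 and 90%, 18% and 9.24% in edgeR. Without it they were 92%, 26% and 7.81% in edgeR and 92%, 24% and 8.66% in limma-voom. The block fits were thus not tested on paired libraries. Lengths, positions and 3′ UTRs came from GENCODE M39 on GRCm39, as merged exons or as the Ensembl canonical transcript. The miRNA sequences came from RefSeq, and mmu-miR-124-3p was not analysed here.

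The members, the related list and the 13 marker lists were chosen with earlier results of these data known. Members were described in full if called in the main, block or edgeR fit, at an unadjusted p under 0.05, or without overlap between groups. The member with the highest level per kilobase of each role was named as well, and others by fold change and role. A few single-gene and single-site results are not reported here.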

Additional observations from a re-analysis of the deposited data

Results flagged for a closer look

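In each group of 4 libraries, the gap between the most extreme library and its nearest neighbor was divided by the range of the group and compared with Dixon's 95% limit for 4 values. Over 92 groups (45 genes and Ago2 in 2 genotypes) 8 passed, where chance gives about 1 in 20, or 4.6. WT replicate 1 stood apart for Syn2 (gap share 0.882, 17545 normalized counts where the others had 14828 to 15150), Cplx2 (0.936, 47072 where the others had 50335 to 50560) and Erc1 (0.836, 770.4 where the others had 1010.0 to 1057). L192P replicate 1 stood apart for Bsn (0.906, 4860 where the others had 6071 to 6196). L192P replicate 2 was low for Syn3 (0.830, 165 where the others had 211 to 220.2) and Syt7 (0.853, 6865 where the others had 7232 to 7295). WT replicate 2 was low for Rims2 (0.982, 2408 where the others had 2607 to 2611). WT replicate 3 was low for Doc2a (0.855, 265 where the others had 349 to 363). Of the 8 flags, 4 fell on replicate 1 libraries, and the causes were not tested.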

How the results depend on the processing

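No fold change of the 6 fully described members changed sign under the 22 alternatives. Over all genes, 53 were called by edgeR, 45 by limma-voom, 533 and 537 with the replicate block in DESeq2 and edgeR, 500 without both replicate 1 libraries, and 112 (without WT replicate 4) to 496 (without WT replicate 1) with 1 library left out, beside 253. Of the 45 members, 1 was called with the replicate block in either tool, 2 without both replicate 1 libraries, and 0 to 1 with 1 library left out. Of the related genes, 0 were called by edgeR and limma-voom, 1 with total counts as size factors, 2 with independent filtering off, 9 and 7 with the block in DESeq2 and edgeR, 7 without both replicate 1 libraries and 0 to 5 with 1 library left out, beside 4. The median log2 fold change of the members was 0.016 with total counts as size factors and -0.039 (without WT replicate 1) to 0.0067 (without WT replicate 4) with 1 library left out, beside -0.0086. The causes were not tested.

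In block fits chosen after seeing the data, with pairs 1, 2, 3 and 4 left out in turn, 572, 147, 148 and 165 genes were called, 7, 1, 1 and 1 of them members. Related genes called in these fits numbered 6, 1, 1 and 2. Sites of 8 bases stood in 16 members in place of 34, and the median share of the leading paralog was 66.6% with canonical lengths, with 7 of 11 families keeping their leader. Over all 4 pairs the block changed no other call of a member. The width of an interval did not follow depth alone: the SE was 0.24 for Unc13c and 0.077 for Unc13b, which had fewer counts.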
